A study of Mus musculus with 20 samples.

Results

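Brown fat burns fuel to make heat, and a small set of microRNAs (miRNAs, which repress messenger RNAs that pair with their seed, bases 2 to 8) is known for its place in that tissue. In mouse cells, miR-193b and miR-365 are transcribed from 1 locus under the brown fat regulator Prdm16 and promote brown fat cell differentiation. miR-378a is encoded inside Ppargc1b, a coactivator gene of mitochondrial metabolism, and expands brown fat when overexpressed in mice. miR-455 is induced by cold and by BMP7 and promotes brown fat formation in mice. None of them is confined to brown fat: miR-378a is also abundant in muscle, and miR-455 in cartilage. The fat around the mouse thoracic aorta is brown-like, and whether fat was trimmed from the aortas is not given in the sources used here.

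The 5 mature miRNAs described are mmu-miR-193b-3p, mmu-miR-365-3p, mmu-miR-378a-3p, mmu-miR-455-3p and mmu-miR-455-5p, taken by name from the 1881 mature mouse miRNAs on the array. The tissue was ascending aorta bearing an atherosclerotic lesion, and the mice were male. Every group carried the double knockout that the labels write as Apobtm2Sgy/Ldltm1Her, a genotype prone to atherosclerosis, so no group has intact alleles. The high fat diet was given for 6, 18 or 30 weeks (3 arrays each). The chow diet was given for 6, 18 or 30 weeks (3 arrays each), with 2 further chow arrays at week 0. The labels' age field holds these same weeks, and the number of animals behind a sample is not given, so p-values measure the spread between samples, which may be technical.

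The mature sequences below, from RefSeq on build GRCm38.p6 and written 5′ to 3′ with the seed in capitals, show which of these miRNAs can share targets and probes.
mmu-miR-193b-3p: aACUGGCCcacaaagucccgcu
mmu-miR-193a-3p: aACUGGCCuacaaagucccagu
mmu-miR-365-3p: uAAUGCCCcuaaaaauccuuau
mmu-miR-455-5p: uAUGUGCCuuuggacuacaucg
mmu-miR-455-3p: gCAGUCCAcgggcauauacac
miR-193b-3p lies at chr16:13449570-13449591 on the plus strand, and the copy of miR-365-3p from Mir365-1 follows it at chr16:13453895-13453916, 4303 bases further on the same strand. Both hairpins lie within the long non-coding genes Gm32817 and Gm53058. A second copy of miR-365-3p, from Mir365-2, has the same sequence and lies at chr11:79726467-79726488, on the strand and chromosome of miR-193a-3p (chr11:79712009-79712030), so the array reads both copies as 1 value. miR-193a-3p is shown because it has the seed of miR-193b-3p and 19 of its 22 bases, the differences being C9U, G20A and C21G counted from the 5′ end with the miR-193b-3p base first. The seeds of miR-365-3p and miR-455-3p belong to no other of the 1679 mature miRNAs in the table, and that of miR-455-5p is shared with miR-5129-3p. The arms of miR-455 come from 1 hairpin within the collagen gene Col27a1, at chr4:63256867-63256888 (5p) and chr4:63256904-63256924 (3p) on the plus strand, and carry unrelated seeds.

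Each array gave between 316 and 742 detected miRNAs, where detected means that at least 0.5 of a probe's spots were well above background. Intensities were divided by each array's 75th percentile (taken over 192 miRNAs that all 20 arrays detected) and taken to log2, and every level below is on that scale, with a floor at 3.08. Of markers of the aortic wall, the smooth muscle miRNAs miR-143-3p and miR-145a-5p and the endothelial miR-126a-3p were detected on all 20 arrays, and the minor arm miR-145a-3p on 0. On the first principal component of the 609 tested miRNAs (46.4% of the variance), replicate 1 of week 18 high fat, of week 18 chow and of week 30 high fat lay apart at 27.7 to 31.3, with the others at 16.4 or below. Of these, the chow array and the week 30 array were also dim, with a 75th percentile of 7.52 and 7.99 (log2) against 8.48 or more elsewhere. Week 18 high fat replicate 3 had a negative control SD of 22.3 intensity units, against at most 2.53 on the others. Slide 1 held weeks 0 and 6, slide 2 week 18 high fat replicates 1 and 2 with all chow arrays of weeks 18 and 30, and slide 3 the remaining high fat arrays. For 8 arrays, the slide position in the label differed from that in the file, and following the label would exchange the diets of replicate 1 of both week 18 groups. Week 30 high fat replicates 2 and 3 were near-identical (SD of log2 differences 0.18), as were week 6 chow replicates 1 and 2 (0.28), against a median of 1.02 for pairs within a group. Week 18 high fat replicate 3 was as close to week 30 high fat replicate 2 (0.19), an array of another group.

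The first question was whether the diet changed these miRNAs. None of the 5 passed an adjusted p of 0.05 at week 6, 18 or 30 (limma, 2-sided, adjusted over 609 miRNAs). At week 6, 0 of 5 passed, where 2.96% of all tested miRNAs did. At weeks 18 and 30, 0 of 5 passed and 0% of all tested miRNAs did. At an unadjusted p under 0.05, the numbers were 0 of 5 at week 6 (12.6% of all tested), 2 of 5 at week 18 (1.15%) and 1 of 5 at week 30 (18.6%). The direction shared by all 5 at week 18 was lower in high fat, with a median of -1.10 on the log2 scale, where the median of all tested miRNAs was 0.26. The medians were -0.07 at week 6, against -0.11 over all tested, and -0.46 at week 30, against -0.13. The members are not independent, as miR-193b-3p and miR-378a-3p varied together (r = 0.95), and their week 18 differences nearly vanished without the arrays apart. By the labelled position, the week 18 differences of miR-193b-3p, miR-378a-3p and miR-455-3p were 1.28, 0.99 and 0.56. That of miR-365-3p was also above 0, and that of miR-455-5p stayed below 0.

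**Figure D1:**
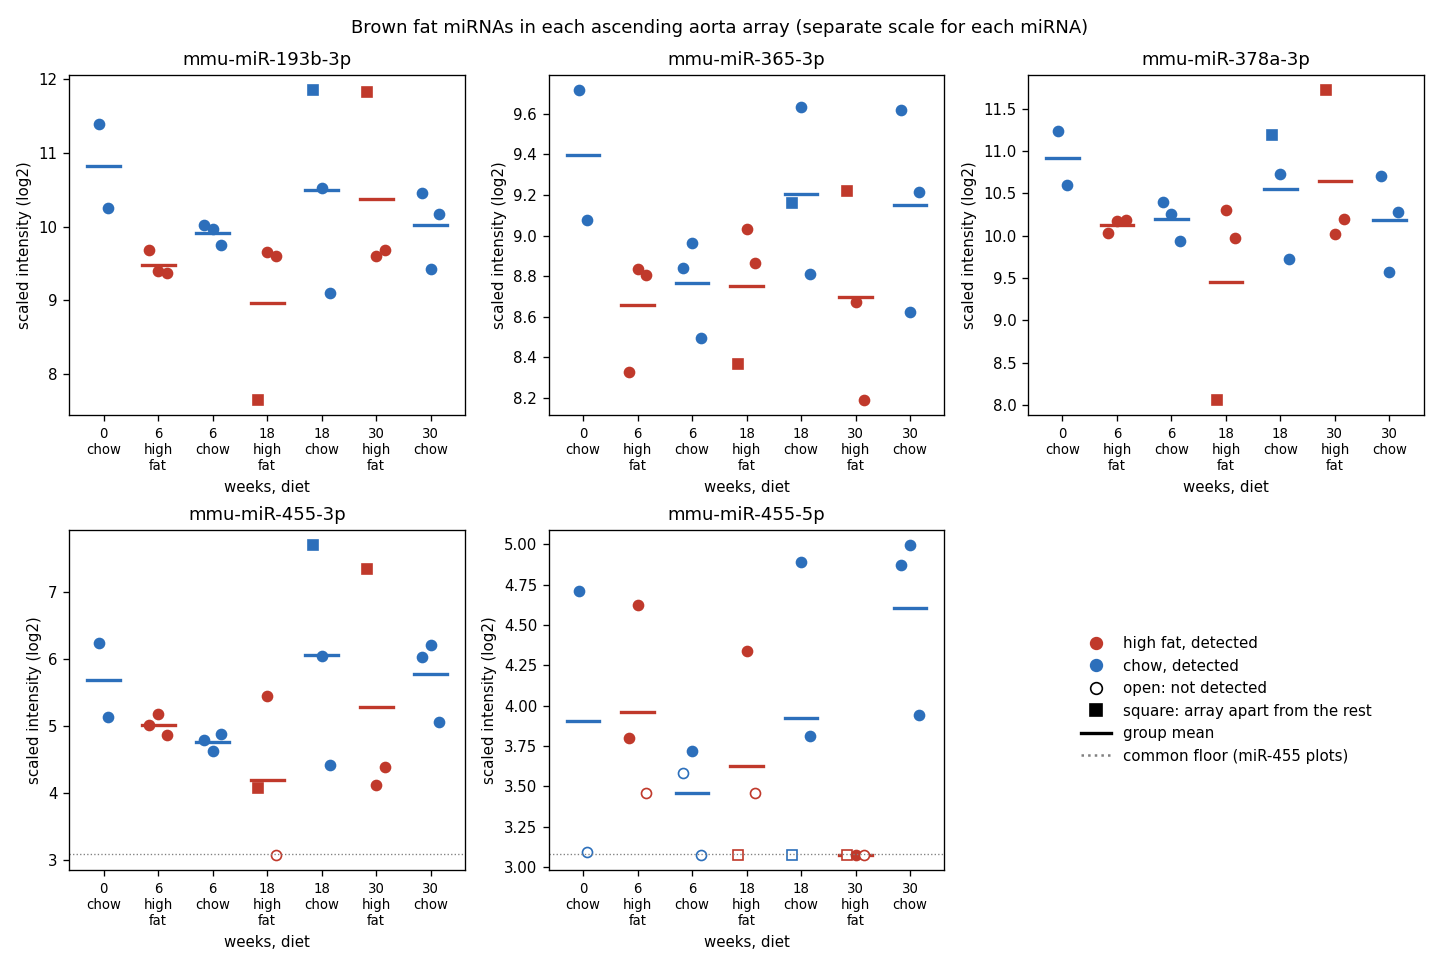
Level of each brown fat miRNA on each array (log2 of the scaled intensity), by weeks and diet, with high fat in red and chow in blue, a bar at the group mean, squares for the 3 arrays that lay apart and open symbols where the miRNA was not detected. The squares hold the lowest and the highest values of miR-193b-3p and miR-378a-3p, while miR-365-3p stays between 8.19 and 9.72.

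miR-193b-3p, the first miRNA of the Prdm16-regulated locus, was detected on all 20 arrays. At week 0 its level was 11.39 and 10.25 on chow. At week 6 it was 9.68, 9.40 and 9.37 on high fat and 10.02, 9.96 and 9.75 on chow, so that every high fat array lay below every chow array. The difference of -0.43 (SE 0.71, 95% interval -1.92 to 1.06, limma adjusted p = 0.928) did not pass, and 15.9% of all tested miRNAs separated the diets at week 6 in the same sense of no overlap. At week 18 it was 7.65, 9.66 and 9.60 on high fat and 11.85, 10.53 and 9.10 on chow, with overlapping groups, as for all 5 members (1.31% of all tested miRNAs did not overlap). The lowest and the highest of the 20 values stood here, on the high fat and the chow array that lay apart. That chow array was dim, and before scaling it read 873, against 1685 and 857 on chow replicates 2 and 3. The difference was -1.52 (SE 0.71, 95% interval -3.01 to -0.04, unadjusted p = 0.0451, adjusted p = 0.955). It was -0.19 (SE 0.49) without the 3 arrays apart, -1.84 (SE 0.93) within slide 2, and 1.28 (SE 0.73) with arrays taken by the labelled position. At week 30 it was 11.83, 9.60 and 9.68 on high fat and 10.46, 9.42 and 10.17 on chow. The high value was the array apart, and the difference of 0.36 (SE 0.71) became -0.37 without it. That array was also dim, and before scaling it read 1193, against 1375 and 962 on high fat replicates 2 and 3.

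miR-365-3p, which is transcribed with miR-193b and also from the copy beside miR-193a, had the lowest SD within groups of the 5 on this scale, 0.40, and 8.87% of the tested miRNAs had one as low or lower. That order depends on the scaling: without scaling between arrays the SE of its diet differences was 0.74, against 0.69 to 0.72 for the other 4, and with scaling on all miRNAs it was 0.53, against 0.52 for miR-455-5p. Its levels were 9.72 and 9.08 at week 0. At week 6 they were 8.33, 8.83 and 8.81 on high fat and 8.84, 8.96 and 8.49 on chow. At week 18 they were 8.36, 9.03 and 8.86 on high fat and 9.16, 9.64 and 8.81 on chow. The groups overlapped at both weeks, and on the 3 arrays apart miR-365-3p was between 8.36 and 9.22, inside the range of the rest. At week 30 it was 9.22, 8.67 and 8.19 on high fat and 9.62, 8.62 and 9.21 on chow, again overlapping. The diet differences were -0.11, -0.45 and -0.46 at weeks 6, 18 and 30 (SE 0.39 each, 95% interval at week 30 -1.29 to 0.38), and none passed.

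miR-378a-3p, the Ppargc1b-embedded miRNA, was detected on all 20 arrays and followed miR-193b-3p. Its levels were 11.24 and 10.60 at week 0. At week 6 they were 10.03, 10.17 and 10.19 on high fat and 10.40, 10.26 and 9.94 on chow, a difference of -0.07 (SE 0.58). The 3 high fat arrays lay within the range of the chow arrays. At week 18 it was 8.06, 10.31 and 9.98 on high fat and 11.19, 10.73 and 9.72 on chow, the low value and the highest chow value being on the arrays apart. That chow array was dim, and before scaling it read 551, below the 1934 and 1325 of chow replicates 2 and 3. The difference of -1.10 (SE 0.58, 95% interval -2.32 to 0.13, unadjusted p = 0.076) did not pass. It was -0.083 (SE 0.43) without the 3 arrays apart and 0.99 (SE 0.59) by the labelled position. At week 30 it was 11.72, 10.02 and 10.19 on high fat and 10.71, 9.57 and 10.29 on chow, a difference of 0.46 (SE 0.58) that became -0.080 without week 30 high fat replicate 1. That array was also dim, and before scaling it read 1103, below the 1843 and 1371 of high fat replicates 2 and 3.

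miR-455-3p, the cold-induced miRNA's 3′ arm, was dim, with processed intensities between 8.65 and 106 on the scanner's linear scale, and detected on 19 arrays. Its levels were 6.24 and 5.13 at week 0. At week 6 they were 5.01, 5.18 and 4.86 on high fat and 4.78, 4.63 and 4.88 on chow, a difference of 0.25 (SE 0.83). The lowest high fat array lay just below the highest chow array. At week 18 it was 4.06, 5.44 and 3.08 on high fat and 7.70, 6.04 and 4.42 on chow. The 7.70 was on the dim chow array, which before scaling read 48.9, against 75.2 and 33.5 on chow replicates 2 and 3. The 3.08 is the floor, on the array with the noisy negative controls, where it was not detected. The difference was -1.86 (SE 0.83, 95% interval -3.62 to -0.099, unadjusted p = 0.0396, adjusted p = 0.955). It was -0.97 (SE 0.70) without the 3 arrays apart, -1.30 (SE 0.91) without week 18 high fat replicate 3, and 0.56 (SE 0.94) by the labelled position. At week 30 it was 7.34, 4.12 and 4.38 on high fat and 6.03, 6.21 and 5.05 on chow. High fat held both the highest and the 2 lowest of these values, and the difference of -0.48 (SE 0.83) became -1.51 (SE 0.77) without week 30 high fat replicate 1. That array was dim, and before scaling it read 53.0, against 30.7 and 24.5 on high fat replicates 2 and 3.

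miR-455-5p, the 5′ arm, was the dimmest and was detected on 11 arrays. Its levels were 4.71 and 3.09 at week 0. At week 6 they were 3.80, 4.62 and 3.46 on high fat and 3.58, 3.72 and 3.08 on chow. At week 18 they were 3.08, 4.34 and 3.46 on high fat and 3.08, 4.89 and 3.81 on chow. These groups overlapped, with differences of 0.50 and -0.30 (SE 0.53 each) at weeks 6 and 18. At week 30 all 3 high fat arrays were at the floor of 3.08 (1 of 3 detected), against 4.87, 4.995 and 3.94 on chow (3 of 3 detected). No high fat array reached the lowest chow array, as for 54% of all tested miRNAs at week 30. The difference of -1.53 (SE 0.53, 95% interval -2.65 to -0.40, unadjusted p = 0.0106, adjusted p = 0.169) did not pass. miR-455-5p was among the tested miRNAs only through week 30 chow, its highest group and the only group to detect it on every array. Its p-values against that group therefore give no support for a difference. Values at the floor have no spread of their own, all week 30 high fat arrays lay on slide 3 and all week 30 chow arrays on slide 2, and diet and slide cannot be told apart there.

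**Figure D2:**
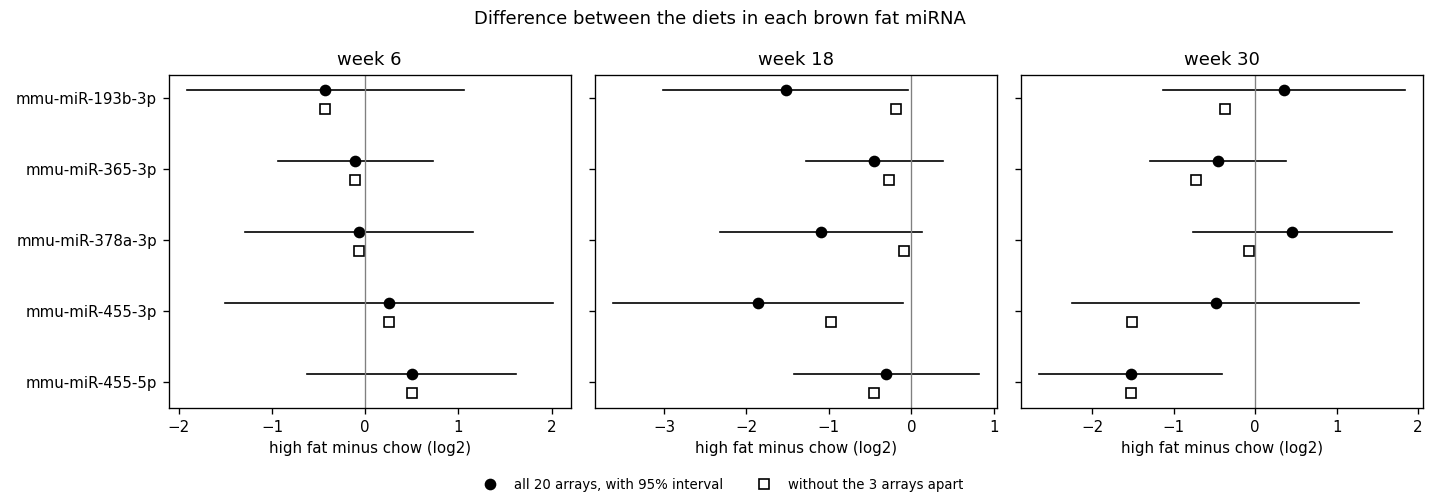
Difference between high fat and chow (log2, horizontal) for each brown fat miRNA at weeks 6, 18 and 30, with filled points and 95% intervals from all 20 arrays and open squares from the fit without the 3 arrays that lay apart. At week 18 the differences of miR-193b-3p and miR-378a-3p were -1.52 and -1.10 with all arrays and -0.19 and -0.083 without the 3.

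**Figure D3:**
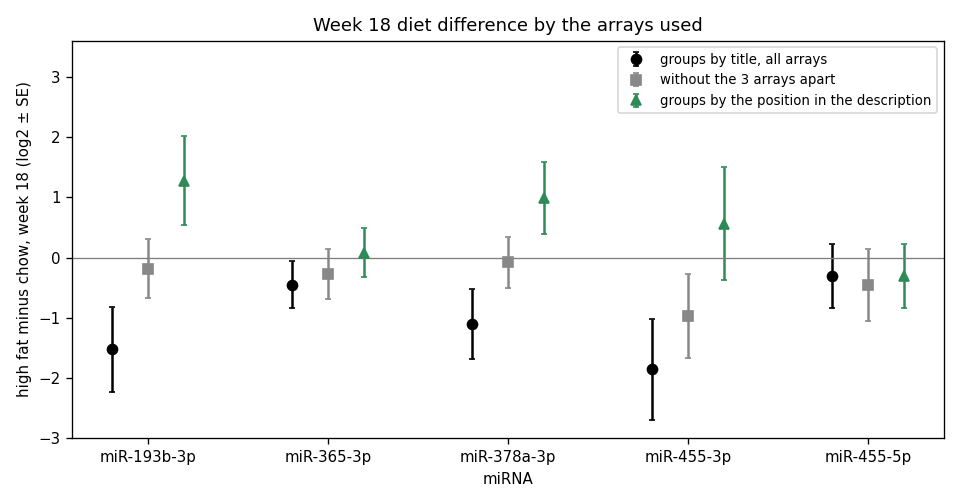
Week 18 difference between high fat and chow (log2, with the SE as bars) for each brown fat miRNA, with groups taken from the sample titles, without the 3 arrays that lay apart, and with each array taken by the slide position in its label. By the labelled position the differences of miR-193b-3p, miR-378a-3p and miR-455-3p were 1.28, 0.99 and 0.56, all above 0.

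A change of the diet difference between weeks was tested with limma's moderated F test, in which 0 of 5 passed after adjustment (0.985% of all tested) and 1 of 5 at an unadjusted p under 0.05 (5.75% of all tested). That one was miR-455-5p, whose diet difference was 2.03 lower at week 30 than at week 6 (F = 3.67, unadjusted p = 0.0469, adjusted p = 0.529). As it was tested only through week 30 chow, where it was highest, this p-value gives no support for a change. The other 4 had adjusted p-values between 0.531 and 0.865.

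Time on each diet was the second question. On chow, all 5 were lower at week 6 than at week 0, with a median of -0.73 where the median of all tested miRNAs was 0.58. For 4 of 5 the groups did not overlap, against 63.1% of all tested, but only 2 arrays stood at week 0. None of the 5 passed (20.4% of all tested did, and 28.6% at an unadjusted p under 0.05, where 0 of 5 did). That share rests on single arrays: its 124 miRNAs became 8 when the first week 0 array was left out and 17 when replicate 1 of week 6 chow was. They became 1 on unscaled values, and 11 once the near-identical pairs had been averaged. The differences were -0.91 (SE 0.79) for miR-193b-3p, -0.63 (SE 0.44) for miR-365-3p, -0.73 (SE 0.65) for miR-378a-3p, -0.92 (SE 0.93) for miR-455-3p and -0.44 (SE 0.60) for miR-455-5p. With each array scaled on all miRNAs on it, miR-365-3p passed at -2.08 (SE 0.59, adjusted p = 0.0348), where 14.8% of all tested miRNAs passed, so that 1 of 5 is near that share. Between week 6 on high fat and week 0, which shares those 2 arrays, 3 of 5 did not overlap (17.4% of all tested), the differences ran from -1.34 (SE 0.79) for miR-193b-3p to 0.057 (SE 0.60) for miR-455-5p, and 0 of 5 passed (0% of all tested, and 0 of 5 against 7.55% at an unadjusted p under 0.05).

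Week 18 minus week 6 on chow was positive for all 5, from 0.35 for miR-378a-3p to 1.29 (SE 0.83) for miR-455-3p, with a median of 0.47, where the median of all tested miRNAs was -0.16. None passed (16.4% of all tested did, and 0 of 5 against 30% at an unadjusted p under 0.05). These weeks lay on different slides, so time and slide cannot be told apart, and without week 18 chow replicate 1 the difference of miR-455-3p was 0.47. Week 30 minus week 18 on chow was negative for 4 of 5 and 0.68 (SE 0.53) for miR-455-5p, with 0 of 5 past the threshold (0% of all tested, and 0 of 5 against 0.821% at an unadjusted p under 0.05).

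On high fat, week 18 minus week 6 was negative for 4 of 5, from -0.34 for miR-455-5p to -0.82 (SE 0.83) for miR-455-3p, and 0.097 for miR-365-3p, with 0 of 5 past the threshold (0% of all tested, and 0 of 5 against 10% at an unadjusted p under 0.05). Week 30 minus week 18 on high fat was 1.40 (SE 0.71, unadjusted p = 0.0627) for miR-193b-3p and 1.20 (SE 0.58, unadjusted p = 0.0551) for miR-378a-3p. It was 1.09 for miR-455-3p, -0.058 for miR-365-3p and -0.55 for miR-455-5p, with 0 of 5 past the threshold (0% of all tested, and 0 of 5 against 2.96% at an unadjusted p under 0.05). Both of these groups hold an array apart, low at week 18 and high at week 30, and without the 3 such arrays the miR-378a-3p difference was -0.035 (SE 0.43).

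Ordered by group mean, week 0 chow was highest for miR-193b-3p (10.82 ± 0.80, SD, n = 2), miR-365-3p (9.40 ± 0.45) and miR-378a-3p (10.92 ± 0.45). Week 18 high fat was lowest for miR-193b-3p (8.97 ± 1.14, SD, n = 3), miR-378a-3p (9.45 ± 1.21) and miR-455-3p (4.19 ± 1.19). For miR-365-3p the 3 high fat groups came in the 3 lowest places, at 8.75, 8.69 and 8.66, next to week 6 chow at 8.76. Week 18 chow was highest for miR-455-3p (6.05 ± 1.64, SD, n = 3) and week 30 chow for miR-455-5p (4.60 ± 0.57, SD, n = 3), with week 30 high fat lowest for miR-455-5p. Of the neighbours in these orders, 1 pair did not overlap, week 6 high fat and week 6 chow for miR-193b-3p. All other neighbours overlapped and did not differ beyond their spread.

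miR-193b-3p and miR-378a-3p varied together from array to array. Across the 20 arrays Pearson's r was 0.95 and Spearman's rho 0.88, each with a permutation p of 1e-04 after adjustment over the 10 pairs of members. Without the 2 arrays farthest from the median r was 0.95. Over 15 samples, without the 3 arrays apart and with the near-identical pairs within groups averaged, it was 0.91 (rho 0.78, adjusted permutation p = 0.0026). Those 15 still hold week 18 high fat replicate 3, which was near-identical to week 30 high fat replicate 2. Permutation p-values over the 15 samples therefore count close arrays as separate. Within slide 1 the r of miR-193b-3p with miR-378a-3p was 0.92 and within slide 2 0.96, over 8 arrays each. Of the deviations from the group means it was 0.95, and without scaling it was 0.92. Among all 18336 pairs of miRNAs detected on every array the median r was -0.0025, and 0.954% had an r at least as high.

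miR-365-3p, which shares the locus of miR-193b, tracked it less closely. The r of miR-193b-3p with miR-365-3p was 0.67 (rho 0.73, adjusted permutation p = 0.0029 and 0.0017) over 20 arrays and 0.79 (rho 0.69) over the 15 samples. It was 0.83 within slide 1 and 0.75 within slide 2. The arrays that lay apart were where the pair separated: miR-365-3p minus miR-193b-3p was -2.69 on week 18 chow replicate 1, -2.61 on week 30 high fat replicate 1 and 0.71 on week 18 high fat replicate 1, and between -1.68 and -0.29 on the other 17. The size of such a difference has no meaning between probes, and how it varies over arrays is what is described. miR-365-3p with miR-378a-3p gave r = 0.67 (rho 0.82, adjusted permutation p = 0.0025 and 1e-04) and 0.83 over the 15 samples.

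miR-455-3p correlated with miR-193b-3p at r = 0.76 (rho 0.66, adjusted permutation p = 0.0011 and 0.0040), but at 0.53 (rho 0.51, adjusted permutation p = 0.064 and 0.0861) over the 15 samples. It was 0.53 over the 17 arrays other than the 3 apart, 0.56 without the 2 arrays farthest from the median, and 0.53 without scaling. The arms of miR-455 gave r = 0.28 (rho 0.41, adjusted permutation p = 0.295 and 0.103) over all 20 arrays and 0.75 (rho 0.80, adjusted permutation p = 0.0017 and 0.0024) over the 15 samples. On the 3 arrays apart the 5p arm was at the floor while the 3p arm stood at 7.70, 7.34 and 4.06. The 7.70 and 7.34 were on the dim arrays, where the 3p arm read 48.9 and 53.0 before scaling, inside its range of 8.65 to 106. Within slide 1 the r of the arms was 0.66 and within slide 2 0.17. miR-455-5p with miR-193b-3p gave r = 0.068 (rho 0.022, adjusted permutation p = 0.777 and 0.926) over 20 arrays, 0.33 over the 15 samples, 0.43 without the 2 arrays farthest from the median and 0.51 without scaling.

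**Figure D4:**
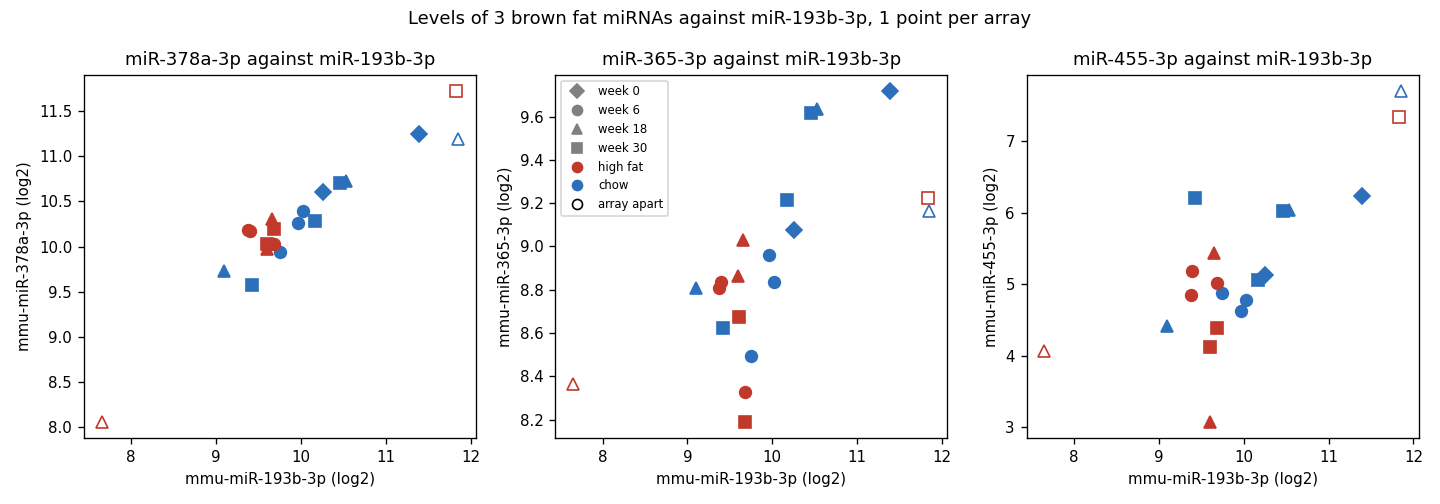
Level of miR-378a-3p, miR-365-3p and miR-455-3p (log2, vertical) against miR-193b-3p (log2, horizontal), 1 point per array, with symbols by week, red for high fat, blue for chow and open symbols for the 3 arrays that lay apart. miR-378a-3p lies close to a line (r = 0.95), while the open symbols of miR-365-3p leave the trend of the others (r = 0.67).

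The miRNAs most like each member over the 20 arrays, among the 189 others detected on all of them, were described by r alone. For both miR-193b-3p and miR-378a-3p they were miR-378d, miR-378b and miR-378c, with r of 0.94, 0.94 and 0.88 for miR-193b-3p and 0.97, 0.97 and 0.94 for miR-378a-3p. Close relatives can hybridise to one another's probes. For miR-365-3p they were miR-30c-5p (0.81), miR-378c (0.75) and miR-378d (0.74). For miR-455-3p they were miR-99b-5p (0.82), miR-125a-5p (0.74) and miR-378d (0.73), and for miR-455-5p miR-199b-5p (0.72), miR-30a-5p (0.72) and miR-497a-5p (0.67). These values move with the scaling. Without scaling, those of miR-455-3p were 0.59, 0.36 and 0.46, those of miR-455-5p 0.91, 0.92 and 0.90, and those of miR-365-3p 0.96, 0.89 and 0.85.

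The other products of these loci and families gave no call in any of the 9 comparisons. miR-193b-5p, the other arm of the miR-193b hairpin, was detected on 10 arrays and its levels lay between 3.13 and 6.16. At week 30 it averaged 5.17 ± 0.86 on high fat and 3.98 ± 0.32 on chow (SD, n = 3 each), a difference of 1.19 (SE 0.58, adjusted p = 0.274). miR-193a-3p, the seed partner printed above, was detected on all 20 arrays, with levels between 5.42 and 9.92. It averaged 7.61 ± 1.90 on high fat and 8.40 ± 1.41 on chow at week 18 (SD, n = 3 each), a difference of -0.79 (SE 0.81). miR-365-1-5p and miR-365-2-5p were detected on 3 and 4 arrays and were not tested. miR-378a-5p, the other arm of miR-378a, differed by -1.10 (SE 0.64) at week 18, and miR-378b, miR-378c and miR-378d by -1.26 (SE 0.62), -0.91 (SE 0.54) and -1.07 (SE 0.56) (adjusted p = 0.955 each).

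The pathway was also read through lists of other miRNAs reported to promote or inhibit brown or beige fat formation. Of 9 promoters 6 were tested, and 0 rose or fell between the diets at any week. Their median difference was -0.17, -0.41 and -1.14 at weeks 6, 18 and 30, against -0.11, 0.26 and -0.13 over all tested miRNAs. At week 30, where the diets lay on different slides, all 6 were lower on high fat, the smallest p-values being those of miR-182-5p (-1.31, SE 0.45, adjusted p = 0.169) and miR-30b-5p (-1.13, SE 0.57, adjusted p = 0.28). miR-196a-5p, which drives browning of white fat in mice, was detected on 3 arrays, and miR-32-5p, reported to support brown fat heat production, on 0 of 20. On chow, 2 of the 6 tested promoters were higher at week 6 than at week 0, with a median of -0.31 against 0.58 over all tested miRNAs. Of these, miR-328-3p rose by 2.69 (limma adjusted p = 0.0307). That is 1 of 6 promoters where 20.4% of all tested miRNAs passed, and the other 8 comparisons gave no promoter. The call was lost in 5 of the 20 fits that left out 1 array, each a week 0 or week 6 chow array. It was also lost with scaling on all miRNAs (limma adjusted p = 0.165), on unscaled values (0.359) and with the near-identical arrays averaged (0.1).

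All 10 inhibitors were tested, with 0 past the threshold between the diets and medians of 0.032, -0.08 and -0.22 at weeks 6, 18 and 30. The smallest p at week 6 was that of miR-93-5p (-1.15, SE 0.43, adjusted p = 0.215). On chow, 5 of 10 inhibitors were higher at week 18 than at week 6, with a median of -0.035 against -0.16 over all tested miRNAs. miR-106b-5p and miR-93-5p, paralogs of the growth-promoting miR-17 family, fell by 2.002 and fell by 1.56 between those weeks (limma adjusted p = 0.0199 and 0.0181). That is 2 of 10 inhibitors where 16.4% of all tested miRNAs passed, and these weeks lay on different slides. Leaving out replicate 1 or 2 of the week 6 chow group, or replicate 1 of the week 18 chow group, lost both calls (adjusted p up to 0.134). Both were also lost on unscaled values (limma adjusted p = 0.457 and 0.405) and with scaling on all miRNAs (0.162 and 0.256). Averaging the near-identical arrays lost both as well (limma adjusted p = 0.0943 and 0.0967). The inhibitors include miR-133a-3p and miR-133b-3p, which are muscle miRNAs and repress Prdm16, and miR-150-5p and miR-155-5p, which are lymphocyte miRNAs.

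Of 8 listed markers of white fat, 7 were tested, 3 were detected on all 20 arrays and 0 passed between the diets at any week. Their summed scaled intensity (log2) ran from 9.91 to 10.47 on high fat and 9.99 to 10.73 on chow at week 18, and from 9.66 to 10.14 on high fat and 10.28 to 10.81 on chow at week 30. The week 30 ranges do not meet, and the diets lay on different slides there, so diet and slide cannot be told apart. At week 30 54% of all tested miRNAs did not overlap, and the sums of the macrophage list (6.83 to 7.66 on high fat and 8.40 to 8.78 on chow) and of the promoter list (11.37 to 11.72 on high fat and 11.77 to 12.16 on chow) separated in the same direction. The median difference of the white fat list was -0.49, against -0.13 over all tested miRNAs, with 0 of 7 members positive and the smallest p-values those of miR-148a-3p (-1.90, SE 0.65, adjusted p = 0.169) and miR-204-5p (-0.92, SE 0.35). miR-335-5p, which is higher in the white fat of obese mice, was detected on 2 arrays. In these bulk samples fewer fat cells and less miRNA per cell cannot be told apart, and the part of perivascular fat in the levels of the 5 miRNAs was not tested.

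Striated muscle, in which miR-378a is abundant, had 4 of 7 listed miRNAs tested and 0 past the threshold between the diets, and its markers miR-208a-3p, miR-208b-3p and miR-499-5p, which lie in myosin heavy chain genes, were detected on 3, 0 and 2 arrays. The summed level of the list was 9.71 to 14.01 on high fat and 10.58 to 13.26 on chow at week 18, so single arrays differed widely within each diet. On chow, miR-206-3p, a skeletal muscle miRNA, rose between week 0 and week 6 by 5.02 (adjusted p = 0.0209), 1 of 4 tested where 20.4% of all tested miRNAs passed. The call was lost in 4 of the 20 fits that left out 1 array, each a week 0 or week 6 chow array. It was also lost on unscaled values (limma adjusted p = 0.254), with scaling on all miRNAs (0.0514) and with the near-identical arrays averaged (0.0685). Cartilage, in which miR-455 is abundant, had miR-140-3p and miR-140-5p detected on all 20 arrays. Its summed level was 9.96 to 11.11 on high fat and 10.42 to 11.46 on chow at week 18, and 0 of 2 tested members passed. The part of muscle or cartilage in the members' levels was not tested.

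Of the lymphocyte list, 2 of 3 were higher on high fat than on chow at week 6, with a median of 0.43 against -0.11 over all tested miRNAs. The other, miR-181a-5p, differed by -3.07 (limma adjusted p = 0.0179), where 2.96% of all tested miRNAs passed, and 0 of 3 passed at weeks 18 and 30. Leaving out replicate 1 of the high fat group, or replicate 1 or 2 of the chow group, lost that call (adjusted p up to 0.116). Scaling on all miRNAs and averaging the near-identical arrays lost it too (limma adjusted p = 0.246 and 0.12). On chow, miR-181a-5p was also higher by 3.24 at week 6 than at week 0 (adjusted p = 0.0136). That is 1 of 3 tested where 20.4% of all tested miRNAs passed. The call was lost in 2 of the 20 fits that left out 1 array. It was also lost with scaling on all miRNAs (limma adjusted p = 0.16), on unscaled values (0.124) and with the near-identical arrays averaged (0.0685). Between week 6 and week 18 on chow, miR-181a-5p was lower by a log2 difference of -3.38 (adjusted p = 0.0041), and scaling on all miRNAs lost that call (0.0577). At week 18 on chow, the myeloid miR-142a-3p fell by 4.15 relative to week 6, and its partner miR-142a-5p fell by 3.86 (adjusted p = 0.00956 and 0.00874). Of all tested miRNAs 16.4% passed in that comparison, whose weeks lay on different slides. Both miR-142a calls were lost without week 18 chow replicate 1 (adjusted p = 0.06 and 0.0577). They were also lost with scaling on all miRNAs (limma adjusted p = 0.0651 and 0.0559) and on unscaled values (0.186 and 0.235). With the near-identical arrays averaged, the limma adjusted p was 0.0498 for miR-142a-3p and 0.0528 for miR-142a-5p. The epithelial list had 0 of 6 detected on all 20 arrays, with 0 past the threshold between the diets and miR-205-5p higher by 5.48 on chow at week 6 than at week 0 (adjusted p = 0.0307), where 20.4% of all tested miRNAs passed. That call was lost in 5 of the 20 fits that left out 1 array, and on unscaled values (limma adjusted p = 0.254). Scaling on all miRNAs and averaging the near-identical arrays lost it too (limma adjusted p = 0.0522 and 0.0821). The smooth muscle, endothelial and red blood cell lists had 0 members past the threshold in any of the 9 comparisons.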

How the data were processed

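miRNAs of 20 mouse aorta samples were measured on 1-colour Agilent arrays (Cy3), 1 array per sample. The authors deposited 1 linear intensity per spot. The scanner software was Agilent Feature Extraction in version 11.5.1, as the submitters' processing notes say, and per the file headers it subtracted background without scaling arrays to each other. A deposited table of the whole series repeated these intensities in 20 of 20 columns. Other deposited columns used were flags (background, outlier, saturation, coded 0 or 1; 0 spots were saturated).

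Control spots and outlier spots (1370 to 2199 per array) were left out. The 15 spots of each probe and the 2 probes of each member were averaged. Levels were scaled, floored at the 80th percentile over arrays of the lowest detected signal, and taken to log2. limma 3.58.1 (lmFit, eBayes, R 4.3.3) was fitted to 609 miRNAs, those that at least 1 of the 7 groups detected on every array, with 13 residual degrees of freedom and Benjamini-Hochberg adjustment at 0.05. Intervals used limma's moderated degrees of freedom. Correlations used 100000 permutations, adjusted over 10 pairs.

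The members, lists and tests were chosen with earlier results of these data known. Named miRNAs were the members, their relatives, the 3 miRNAs most like each, and of each list those past the threshold or otherwise up to 2 with the smallest p. Deviations of same-numbered arrays had an r over 0.1, a low cutoff, in 10 of 25 pairs (r from -0.59 to 0.74). They did so in every pair only between weeks 30 and 18 on high fat, where a replicate block changed no call. Alternatives were other scaling, background correction, floors, filters, probes, blocks, arrays left out and arrays by labelled position. The fit was tested on simulated data.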

Additional observations from a re-analysis of the deposited data

How the results depend on the processing

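Of 704 refits of single member differences over all alternatives, 2 passed an adjusted p of 0.05 (limma) and 35 changed sign. With scaling on all miRNAs, 1 member (miR-365-3p) passed in chow week 6 minus week 0, as did 14.8% of all tested miRNAs. In a fit of the 2 groups alone, 1 member (miR-455-5p, adjusted p = 0.032) passed in the week 30 diet comparison, as did 20.4% of all tested miRNAs. That member was tested only through week 30 chow, where it was highest, so the pass gives no support for a difference. Scaling on all miRNAs turned the week 6 diet differences of miR-193b-3p, miR-365-3p and miR-378a-3p to 0.056, 0.376 and 0.415. Without scaling, miR-365-3p and miR-378a-3p were 0.104 and 0.143 at week 6, miR-365-3p 0.578 at week 18, miR-193b-3p and miR-378a-3p -0.326 and -0.224 at week 30, and miR-378a-3p 0.11 in high fat week 18 minus week 6. Quantile normalization gave miR-365-3p 0.214 at week 6, and the brightest probe gave miR-365-3p 0.0017 and miR-378a-3p 0.00903. With normexp (offset 50), miR-455-3p and miR-455-5p were 0.382 and 0.22 at week 30, and miR-455-5p was -0.337 in chow week 30 minus week 18. With the slide as a block, week 30 diet differences were -0.589 for miR-193b-3p, -0.336 for miR-378a-3p and 1.19 for miR-455-3p. In that fit, week 18 high fat replicate 3 against replicates 1 and 2 alone sets the difference between slides 2 and 3. Replicate 3 is the array with the noisy negative controls and miR-455-3p at the floor, so these values do not separate diet from slide. With near-identical arrays averaged, the week 30 diet difference of miR-455-3p was 0.0304. By the labelled positions, week 18 diet differences were 1.28 (miR-193b-3p), 0.083 (miR-365-3p), 0.99 (miR-378a-3p) and 0.56 (miR-455-3p), and miR-378a-3p was 0.363 in high fat week 18 minus week 6. Without the 3 arrays apart, an alternative chosen after seeing the data, week 30 diet differences were -0.375 (miR-193b-3p) and -0.0802 (miR-378a-3p), and miR-378a-3p was 0.014 in high fat week 18 minus week 6 and -0.035 in week 30 minus week 18. The cause of these sign changes was not tested.

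Leaving out 1 array at a time let no member pass. The week 6 diet difference then ranged from -0.244 to 0.056 for miR-365-3p and from -0.201 to 0.0304 for miR-378a-3p. At week 18 miR-455-5p ranged from -0.727 to 0.179. At week 30 the ranges were -0.375 to 0.74 for miR-193b-3p, -0.0802 to 0.767 for miR-378a-3p and -1.51 to 0.097 for miR-455-3p, and miR-378a-3p in high fat week 18 minus week 6 ranged from -1.11 to 0.014. The replicate block turned no sign and changed no call, with 0 members called (miR-455-3p at week 18, -1.86, SE 0.71). Slide as a block gave no value for week 18 minus week 6, and the filter on miRNAs detected on all 20 arrays none for miR-455. With 2 or 3 arrays per group, and miR-455-5p above background on 11 arrays, the number of arrays and the dim signal limit the precision.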
